A study of Mus musculus with 9 samples.

Results

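The loss of Rag1 was examined in the CCR10 reporter-negative innate lymphoid cells (ILCs) of mouse skin. The comparison sets 3 arrays of Rag1-/-CCR10+/EGFP GFP- cells against 2 arrays of CCR10+/EGFP GFP- cells with intact Rag1, chosen by their labels, which makes 5 of the 9 arrays in the series. Both groups came from female B6 mice with EGFP at one Ccr10 allele, so every mouse, controls included, carried a reporter allele in place of one Ccr10 copy. Cells were sorted from skin as CD45.2+, CD3- and lineage-negative, with antibodies against T cell (CD3, CD5), B cell (B220) and myeloid (CD11b, Gr-1, 7-4) antigens and an erythroid Ter antigen; no mast cell marker was in that panel. The mice with intact Rag1 are called Rag1-sufficient below. The other 4 arrays are the GFP+ cells of the same genotypes, 2 per genotype. Age was not given. Nothing in the labels ties replicates to different animals or pools, so each p-value reflects only how much these samples varied, and that variation may be technical. In sorted bulk samples, fewer cells of a type and less RNA per cell cannot be told apart.

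Rag1 encodes one subunit of the recombinase that assembles T and B cell receptor genes, and mice without it have no mature T or B cells. ILCs do not need this recombinase: they carry no rearranged antigen receptor and respond instead to cytokines and other tissue signals, and in skin the group-2 ILCs (ILC2s) are a common kind. CCR10 is a chemokine receptor for ligands made in skin, so its reporter splits the skin ILCs into 2 fractions.

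The genotype could not be checked on the targeted gene. On the GFP- arrays the Rag1 set lay at 28.5 to 31.4 intensity units and the Rag2 set at 14.1 to 15.3, below the filter on dim probe sets (a mean of about 41.6 units). Array medians ran from 74.1 to 77.6 units. They were 77.5 and 77.6 on the Rag1-sufficient GFP- arrays and 74.3, 74.6 and 74.2 on the Rag1-/- GFP- arrays. Among the 5 GFP- arrays, Spearman correlations over probe sets ran from 0.986 to 0.992 within a genotype and from 0.975 to 0.989 between genotypes. The pan-ILC gene Id2, which opposes E-protein factors during ILC development, was read at 7515 and 7503 on the Rag1-sufficient arrays and at 7295, 7515 and 7639 on the Rag1-/- arrays. Ccr10 itself, the gene that carries the reporter, was read at 129 and 126 against 103, 125 and 109, a difference of -0.18 ± 0.18 on the log2 scale (adjusted p = 0.626). On the GFP+ arrays Ccr10 was read at 163 and 130 in Rag1-sufficient and at 148 and 96.5 in Rag1-/- cells. Over both genotypes, the Ccr10 values of the GFP+ and GFP- arrays thus overlapped. All differences below are Rag1-/- minus Rag1-sufficient on the log2(value + 1) scale, as estimate ± SE.

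Of 17445 probe sets tested, 25 (0.143%) passed an adjusted p of 0.05. The 9 that were higher in Rag1-/- cells (0.0516%) included Gzmc, a cytotoxic granule protease, Smpd1, the lysosomal acid sphingomyelinase, and Adgrg1, an adhesion receptor found on cytotoxic lymphocytes. The 16 that were lower (0.0917%) included the inflammatory cytokine gene Il1b and several genes best known from myeloid cells, such as Cd33, Clec10a and Csf2rb. By size, 15 of the 25 differed by more than 2-fold, 7 upward and 8 downward. The median difference over all tested sets was 0.00, and 3014 sets had an unadjusted p under 0.05.

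The count rested on single arrays. It was 139 without Rag1-/- GFP- replicate 1, 2 without replicate 2, 4 without replicate 3, 9 without Rag1-sufficient GFP- replicate 1 and 1 without its replicate 2. Since all groups share 1 estimate of the spread, the GFP+ arrays counted too: 78 sets passed without Rag1-/- GFP+ replicate 1 and 76 without its replicate 2. On the 5 GFP- arrays alone 8 sets passed, 4 of them among the 25. The sets that passed kept their sign in every alternative.

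Of the 20 named genes past the threshold that have a promoter entry, 7 held at least 1 of 4 short motifs, of factor families with a known place in lymphoid or myeloid cells, and their promoters are shown first so that the motifs can be read in place. Each is the 250 bases before the RefSeq start on GRCm38.p6, 5′ to 3′ on the gene's strand, with every match to the 4 motifs in capitals. The 3 higher genes are AA467197 (chr2:122637637-122637886, plus strand), Gzmc (chr14:56234658-56234907, minus strand) and Upp1 (chr11:9117758-9118007, plus strand). The 4 lower genes are Cd33 (chr7:43533172-43533421, minus strand), Plek (chr11:17008719-17008968, minus strand), Sidt1 (chr16:44332839-44333088, minus strand) and Wdfy4 (chr14:33185067-33185316, minus strand).
AA467197: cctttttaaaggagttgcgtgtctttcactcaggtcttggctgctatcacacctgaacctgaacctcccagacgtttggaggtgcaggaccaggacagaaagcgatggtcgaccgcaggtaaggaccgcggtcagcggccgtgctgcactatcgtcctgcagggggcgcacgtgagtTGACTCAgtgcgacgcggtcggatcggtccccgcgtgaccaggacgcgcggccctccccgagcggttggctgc
Gzmc: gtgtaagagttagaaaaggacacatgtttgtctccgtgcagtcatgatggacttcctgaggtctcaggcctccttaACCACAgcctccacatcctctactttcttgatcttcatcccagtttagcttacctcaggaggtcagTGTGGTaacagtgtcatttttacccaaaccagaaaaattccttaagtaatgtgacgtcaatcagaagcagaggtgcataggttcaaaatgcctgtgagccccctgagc
Upp1: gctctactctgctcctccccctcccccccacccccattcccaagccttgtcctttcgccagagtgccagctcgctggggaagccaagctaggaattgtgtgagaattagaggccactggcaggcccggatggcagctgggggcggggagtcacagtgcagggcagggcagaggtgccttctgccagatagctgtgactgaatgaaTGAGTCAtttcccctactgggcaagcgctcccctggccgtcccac
Cd33: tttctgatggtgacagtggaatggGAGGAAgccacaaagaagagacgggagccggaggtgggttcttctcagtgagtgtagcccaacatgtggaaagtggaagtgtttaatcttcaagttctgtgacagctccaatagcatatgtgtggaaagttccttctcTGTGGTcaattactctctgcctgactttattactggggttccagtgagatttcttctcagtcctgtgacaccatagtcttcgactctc
Plek: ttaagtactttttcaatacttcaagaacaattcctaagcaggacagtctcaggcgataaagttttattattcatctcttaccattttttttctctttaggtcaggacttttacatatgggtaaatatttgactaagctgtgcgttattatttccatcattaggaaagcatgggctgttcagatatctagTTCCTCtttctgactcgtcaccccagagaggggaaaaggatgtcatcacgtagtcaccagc
Sidt1: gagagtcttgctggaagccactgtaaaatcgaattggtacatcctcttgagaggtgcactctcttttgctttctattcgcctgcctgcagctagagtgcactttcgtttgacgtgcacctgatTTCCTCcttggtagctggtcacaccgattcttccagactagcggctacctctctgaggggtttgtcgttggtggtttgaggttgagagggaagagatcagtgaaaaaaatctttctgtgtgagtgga
Wdfy4: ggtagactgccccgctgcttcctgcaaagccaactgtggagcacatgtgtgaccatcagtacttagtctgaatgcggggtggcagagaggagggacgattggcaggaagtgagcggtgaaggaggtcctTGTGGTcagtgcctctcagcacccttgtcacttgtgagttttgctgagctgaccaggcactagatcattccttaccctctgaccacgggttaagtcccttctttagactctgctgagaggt
The capitals mark the AP-1 site TGACTCA in AA467197 (at -73) and Upp1 (at -45, written TGAGTCA). They mark the Runx core TGTGGT in the higher gene Gzmc (at -174, written ACCACA, and at -108) and in the lower genes Cd33 (at -88) and Wdfy4 (at -121). The PU.1 core GAGGAA is in Cd33 (at -226), Plek (at -61, written TTCCTC) and Sidt1 (at -127, written TTCCTC). Positions count from the start, and both strands were searched. TGACTCA was found in 2 of the 7 higher genes with a promoter entry (28.6%), 0 of the 13 lower genes and 3.41% of the 10994 tested genes with an entry. GAGGAA was in 3 of 13 lower genes (23.1%), 0 of 7 higher genes and 22.4% of all. TGTGGT was in 1 of 7 higher genes (14.3%), 2 of 13 lower genes (15.4%) and 11.2% of all. The C/EBP palindrome TTGCGCAA was in 0 of both groups and in 0.218% of all. A match is a description of these letters and not of binding. The share of the lower genes for GAGGAA lies near that of all promoters. For TGACTCA the share of the higher genes rests on 2 of 7 genes, with 4 motifs searched, and was not tested.

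Gzmc was among the higher sets with the clearest separation. It encodes granzyme C, a serine protease of cytotoxic granules in activated killer lymphocytes. It was read at 86.6 and 88.6 in Rag1-sufficient GFP- cells and at 870, 677 and 1173 in Rag1-/- GFP- cells. The lowest Rag1-/- array was far above both controls, a difference of 3.32 ± 0.27 (adjusted p = 0.00972, a 9.99-fold difference). GFP+ cells showed the same split, with 45.2 and 31.3 against 560 and 872. Gzmb, a better known granzyme of the same gene cluster, did not follow: it was read at 48.8 and 63.2 against 48.8, 61.5 and 58.8.

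Smpd1 was read at 333 and 293 against 770, 875 and 721 units, 1.33 ± 0.16 higher (adjusted p = 0.0246). Adgrg1 was read at 665 and 695 against 1407, 1686 and 1330, 1.11 ± 0.15 higher (adjusted p = 0.0397). Upp1, which breaks uridine down to uracil and a sugar phosphate, was read at 67.1 and 80.6 against 191, 216 and 204, 1.46 ± 0.17 higher (adjusted p = 0.0246). In each of the 3, every Rag1-/- array was above both Rag1-sufficient ones. Prelid2, of a family of mitochondrial lipid carriers, was read at 92.7 and 70.3 against 242, 220 and 259, 1.56 ± 0.19 higher (adjusted p = 0.0253).

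AA467197, a transcript with a small mitochondrial protein and a microRNA, was read at 51.7 and 54.2 against 96.3, 90.4 and 110, 0.89 ± 0.10 higher (adjusted p = 0.0183). Its span holds the microRNA miR-147, whose 5p arm is shown with the seed, bases 2 to 8, in capitals, since it lies within this gene.
mmu-miR-147-5p: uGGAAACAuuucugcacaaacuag
The microRNA lies on chromosome 2 at chr2:122640814-122640837 on the plus strand of GRCm38.p6, inside the host at chr2:122637887-122641076. Fat3, a giant cadherin, has 15 probe sets, and those that did not pass are not described here. The set that passed was dim throughout, at 33.5 and 34.9 against 57.0, 59.4 and 54.8 (0.72 ± 0.10, adjusted p = 0.0380). Its Rag1-sufficient mean is under the filter limit.

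The widest difference belongs to a probe set annotated to Kcnma1, a calcium-activated potassium channel. It was read at 29.5 and 36.8 on the Rag1-sufficient and at 9526, 9595 and 9891 on the Rag1-/- GFP- arrays, and at 23.2 and 49.8 against 8736 and 9186 in GFP+ cells. The difference was 8.15 ± 0.27 (adjusted p = 1.06e-05), with a Rag1-sufficient mean under the filter limit, so no fold is given. The other Kcnma1 set differed in the same direction, but far less, and did not pass. It was read at 43.9 on both Rag1-sufficient GFP- arrays and at 54.6, 70.2 and 54.3 on the Rag1-/- GFP- arrays (0.42 ± 0.13, adjusted p = 0.196). Its difference in GFP+ cells was 0.44 (adjusted p = 0.527). By probe set number, the 19 named sets nearest to the Kcnma1 set that passed all belong to genes on chromosome 8, while Kcnma1 is on chromosome 14. None of those 19 passed, with differences from -0.41 to 0.82. An unnamed set, the next by number, was read at 118 and 120 against 249, 334 and 255 and passed as well (1.21 ± 0.14, adjusted p = 0.0246). Which transcript these 2 sets read was not tested.

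**Figure D1:**
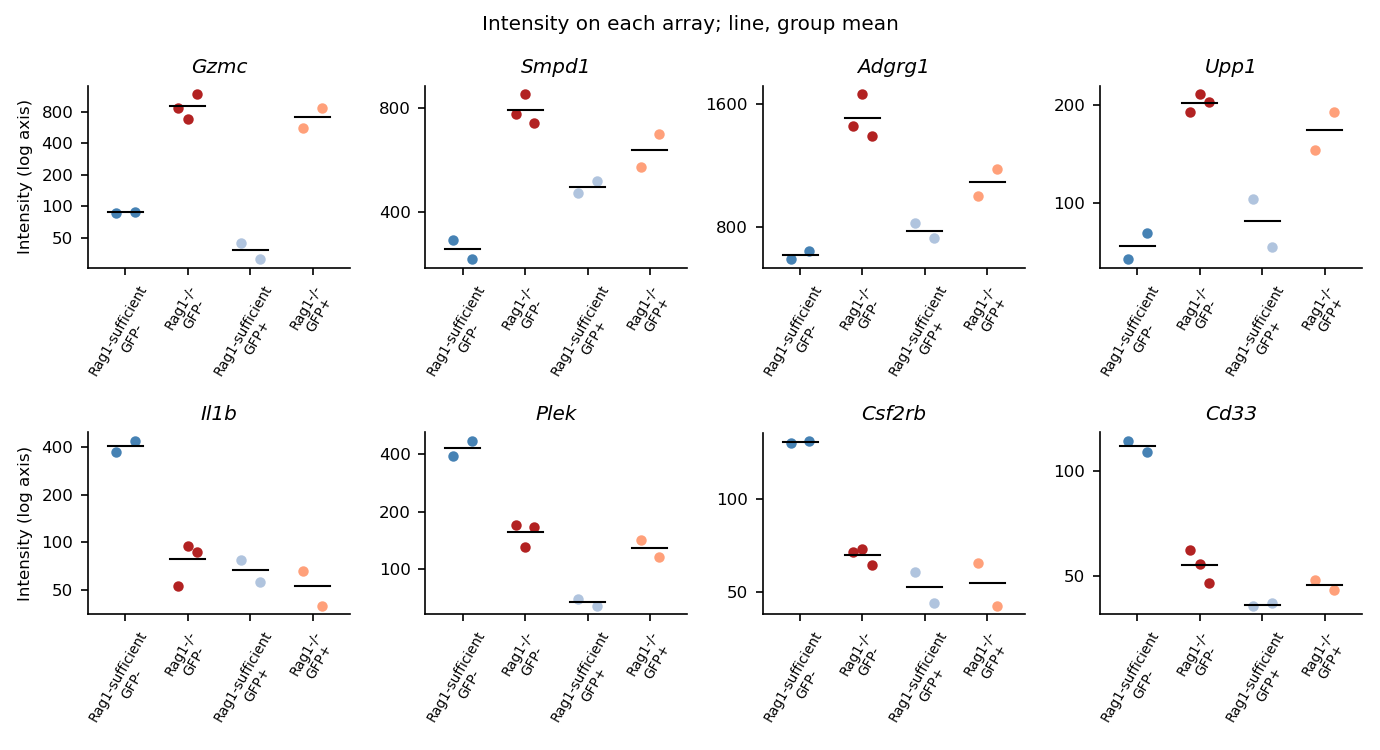
Intensity (log axis, a scale for each panel) of 8 genes on each of the 9 arrays; points are arrays, lines group means. The genes of the upper row are higher on all 3 Rag1-/- GFP- arrays than on both Rag1-sufficient GFP- arrays, and for those of the lower row both Rag1-sufficient GFP- arrays lie above all 7 others.

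Among the lower sets, Il1b, the gene of the cytokine interleukin-1β, differed most. It was read at 373 and 439 in Rag1-sufficient and at 53.1, 94.1 and 86.6 in Rag1-/- GFP- cells, a difference of -2.40 ± 0.28 (adjusted p = 0.0246, 5.29-fold lower). Both controls were above every Rag1-/- array, whose level was close to the 77.5 and 56.0 of Rag1-sufficient GFP+ cells. Plek (pleckstrin), which protein kinase C phosphorylates in blood cells, was read at 394 and 471 against 170, 130 and 166, and differed by -1.48 ± 0.16 (adjusted p = 0.0183). In GFP+ cells Plek went the other way, from 69.6 and 64.0 to 142 and 116, which did not pass (0.93, adjusted p = 0.118).

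The other lower genes fell into a few roles. Several act on the surface of myeloid cells. Csf2rb, the shared signalling chain of the GM-CSF receptor and its relatives, was read at 151 and 154 against 67.7, 69.0 and 61.2 (-1.20 ± 0.14, adjusted p = 0.0246). Cd33, a sialic acid-binding inhibitory receptor, was read at 122 and 113 against 59.5, 54.0 and 47.7 (-1.12 ± 0.10, adjusted p = 0.0112). Clec10a, a galactose-type lectin of macrophages and dendritic cells, was read at 81.0 and 92.1 against 42.9, 40.4 and 40.4 (-1.05 ± 0.14, adjusted p = 0.0388).

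Xcr1, the chemokine receptor of cross-presenting dendritic cells, was read at 68.2 and 65.0 against 41.6, 39.3 and 39.5 (-0.72 ± 0.07, adjusted p = 0.0125). Wdfy4, needed for cross-presentation, differed by -0.71 and Rab7b, a small GTPase of late endosomes, by -0.83. Of the kinases, Lrrk2, mutated in inherited Parkinson's disease, was read at 108 and 103 against 46.1, 50.5 and 57.1 (-1.03 ± 0.10, adjusted p = 0.0112), and the death-associated kinase Dapk1 differed by -0.80. Each of these sets had both Rag1-sufficient arrays above the 3 Rag1-/- arrays.

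Pdk4, which turns off pyruvate dehydrogenase, differed by -1.23, and Cyp27a1, a mitochondrial sterol hydroxylase, by -0.67. Lrrn1, a leucine-rich repeat membrane protein, differed by -1.27, the secreted protease Adamts9 by -0.81, Stard13, a lipid transfer domain protein, by -0.73 and Sidt1, a transmembrane protein of the SID family, by -0.67. Adamts9 has 6 probe sets, and those that did not pass are not described here. In 6 of the 16, namely Lrrn1, Pdk4, Clec10a, Adamts9, Stard13 and Xcr1, the Rag1-/- mean was under the filter limit.

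In each of the 16 lower sets, both Rag1-sufficient GFP- arrays lay above all 7 other arrays, the 4 GFP+ arrays included. Of all 17445 tested sets, 1157 had this order. The 16 were picked for high values on those arrays, which favours the order, so it describes the sets and is no separate test. Of the higher sets, 8 of 9 had all 5 Rag1-/- arrays above all 4 Rag1-sufficient arrays, with the GFP+ arrays counted. How many of all tested sets had that order was not counted, and the call in GFP- cells favours it, so the 8 of 9 only describes these sets. In GFP+ cells 43 sets (0.246%) passed the Rag1 comparison. They shared 5 sets with the GFP- comparison, all with the same sign: the Kcnma1 set, the unnamed set, Fat3, AA467197 and Gzmc. These are 20% of the 25 and 11.6% of the 43, and none of the 16 lower sets was among them.

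**Figure D2:**
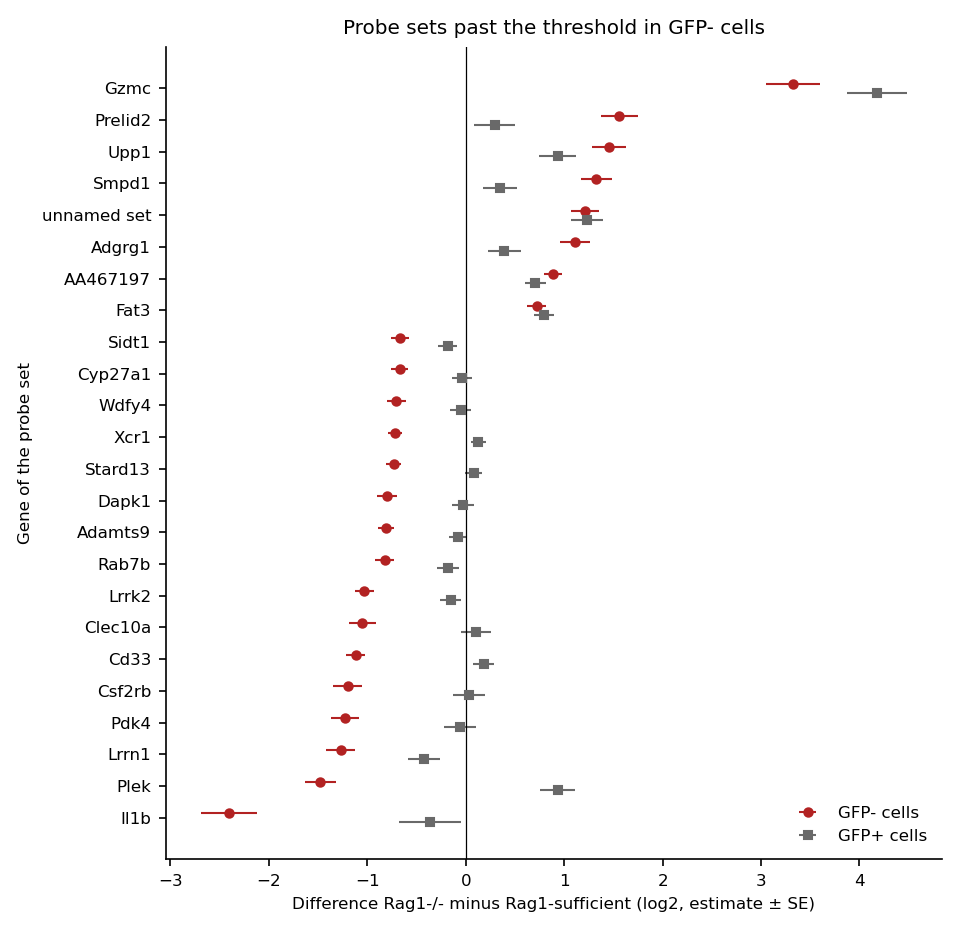
Difference Rag1-/- minus Rag1-sufficient (log2, estimate ± SE) of the sets past the threshold in GFP- cells, without the Kcnma1 set, in GFP- cells (circles) and GFP+ cells (squares). The lower genes sit between -2.40 and -0.67 in GFP- cells and nearer to 0 in GFP+ cells, where Plek is at 0.93. They were picked by their difference in GFP- cells, which favours this order.

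Whether the Rag1 difference itself differed between the fractions was tested with an interaction term. No set passed (0%), the smallest adjusted p was 0.0723, and 2378 sets had an unadjusted p under 0.05; 500 passed without Rag1-/- GFP+ replicate 2. For the 16 lower sets the adjusted p of the difference between fractions ran from 0.0723 to 0.256, and for the 9 higher sets from 0.215 to 0.974. So a set past the threshold in GFP- cells and not in GFP+ cells is not shown to differ between them. The smallest p-values were those of Plek, Cd33, Xcr1, the mitotic gene Nusap1 and the mitochondrial ribosome gene Mrpl50, each with an adjusted p of 0.0723. Nusap1 was read at 123 and 109 against 139, 124 and 135 in GFP- cells, and at 287 and 297 against 121 and 135 in GFP+ cells.

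Beyond the threshold, gene lists were described by counts and medians. The background is that 23.0% of all tested sets had every Rag1-/- GFP- array above both Rag1-sufficient ones, and 17.6% had every one below. The median over all tested sets was 0.00. These lists were chosen with earlier results in view, so the counts below are descriptions.

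Markers of other cell types were among the lists that lay lowest. Of 21 mast cell genes 16 were tested, of which 13 were lower without overlap and 1 higher, none passed, and the median was -0.98. Cpa3, the mast cell carboxypeptidase, was read at 4932 and 4965 against 2686, 2146 and 2009. The groups did not overlap, but the spread shared with the GFP+ arrays was wide (2085 and 19.9 in the Rag1-/- GFP+ arrays), and the adjusted p was 0.712. The tryptase Tpsb2 was read at 256 and 282 against 128, 142 and 134 (-0.99 ± 0.15, adjusted p = 0.0520). Hdc, which makes histamine, was read at 457 and 331 against 180, 173 and 129 (-1.29, adjusted p = 0.102).

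The summed intensity of the mast cell list was 11619 to 11853 on the Rag1-sufficient and 5720 to 7182 on the Rag1-/- GFP- arrays. In GFP+ cells it was 1420 to 1625 against 1984 to 5728, where the higher value is replicate 1. So mast cell genes were read on all GFP- arrays of both genotypes, at their brightest in the arrays where Il1b, Plek, Csf2rb and Cd33 were bright. Their part in the lower calls was not tested.

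Of 15 keratinocyte genes, 10 were lower without overlap and 1 higher, with a median of -0.86. Krt14, a basal keratin, was read at 375 and 782 against 101, 286 and 152 (-1.72 ± 0.44, adjusted p = 0.159). The list summed to 3879 to 6118 against 2762 to 3783 units, and its median was -0.53 without Rag1-sufficient replicate 2 and -1.34 without replicate 1. Endothelial and pericyte genes (12 tested, 8 lower without overlap) had a median of -0.41 (-0.24 without Rag1-sufficient replicate 2), and fibroblast genes (15 tested, 10 lower and 1 higher) one of -0.24. Their part in the results was not tested either.

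**Figure D3:**
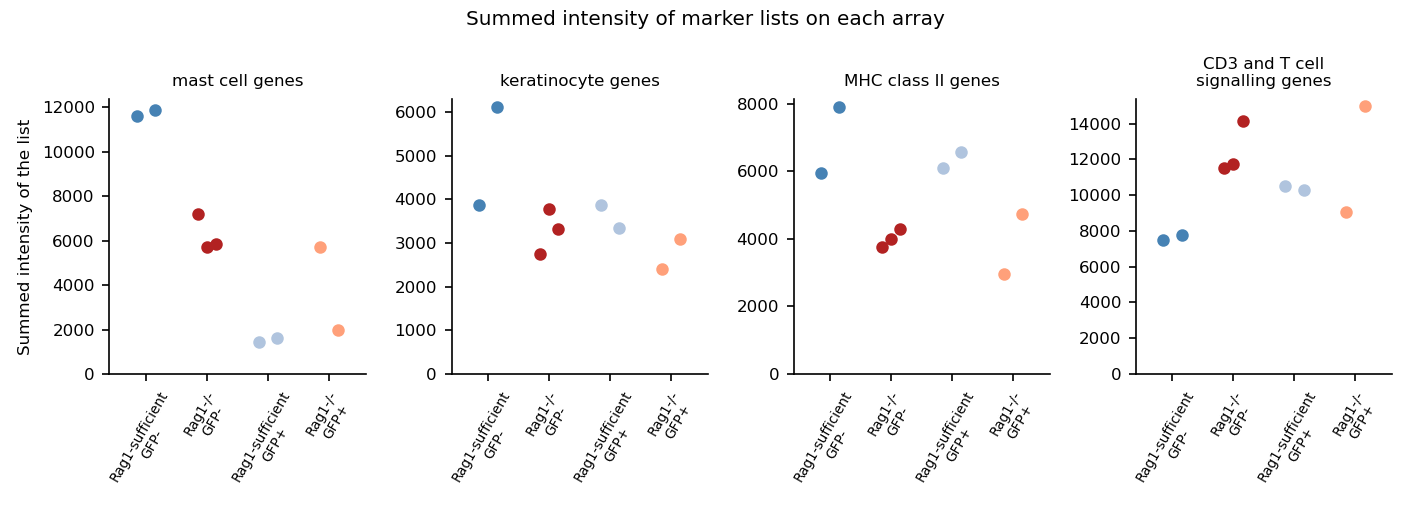
Summed intensity (linear axis from 0) of 4 gene lists on each of the 9 arrays, by genotype and fraction; points are arrays. Mast cell genes sum to 11619 to 11853 in Rag1-sufficient GFP- cells and to 5720 to 7182 in Rag1-/- GFP- cells, and CD3 and T cell signalling genes to 7470 to 7758 against 11527 to 14159.

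Genes of myeloid and antigen-presenting cells were mixed. The paired immunoglobulin-like and lectin receptors, a family that tunes leukocyte activation, had 13 of 16 lower without overlap and 0 higher, 1 past the threshold (Cd33) and a median of -0.37, against 0.10 in GFP+ cells. Pilrb1 in it was read at 118 and 123 against 89.6, 86.9 and 89.5 (-0.43, adjusted p = 0.0848). Macrophage and monocyte genes (16 tested, 7 lower and 2 higher without overlap) had a median of -0.25. Apoe, a lipid carrier, was read at 980 and 1463 against 396, 670 and 533, while Lyz2, a myeloid lysozyme, overlapped (97.2 and 156 against 49.0, 58.9 and 100). Dendritic and Langerhans cell genes (15 tested, 6 lower and 3 higher without overlap) had a median of -0.09, with Xcr1 and Clec10a past the threshold. That median was 0.05 without Rag1-/- replicate 1, -0.17 without replicate 2 and -0.03 without Rag1-sufficient replicate 1.

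MHC class II genes present antigen to CD4+ T cells. Of 10 tested, 8 were lower and 2 higher without overlap, none passed, and the median was -0.32. H2-Ab1, a class II beta chain, was read at 1488 and 1889 against 498, 588 and 731 (-1.48 ± 0.22, adjusted p = 0.0525). H2-Eb1 was read at 673 and 899 against 226, 310 and 325 (-1.45 ± 0.21, adjusted p = 0.0520). The exceptions were H2-Oa (0.49) and Ctss, a protease of antigen processing (1.17). The list summed to 5963 to 7895 against 3764 to 4283 units, and in GFP+ cells to 6101 to 6581 against 2952 to 4733.

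MHC class I genes lay on the other side: 9 of 12 were higher and 1 lower without overlap, with a median of 0.45 (GFP+ -0.03). Psmb8, an immunoproteasome subunit, was read at 163 and 146 against 247, 275 and 355 (0.90, adjusted p = 0.140). Tapbp, which loads peptide onto class I, was read at 758 and 712 against 1045, 1192 and 1155 (0.62, adjusted p = 0.144). No member passed.

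More of the CD3 and T cell signalling genes read higher than lower, although the sort excluded cells with CD3 on the surface. Of 20 tested, 12 were higher and 5 lower without overlap, none passed, and the median was 0.46. Cd3g was read at 891 and 932 against 2638, 2873 and 4859 (1.87 ± 0.32, adjusted p = 0.0739), and Cd3e at 270 and 238 against 925, 765 and 942 (1.78 ± 0.36, adjusted p = 0.101). Trat1, a T cell receptor adaptor, was read at 33.5 and 45.3 against 246, 197 and 354 (2.70 ± 0.66, adjusted p = 0.148). Ubash3a, a brake on T cell receptor signalling, was read at 293 and 289 against 501, 576 and 540 (0.88 ± 0.13, adjusted p = 0.0520).

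Cd28, a costimulatory receptor, was lower, at 210 and 263 against 154, 68.3 and 126 (-1.09 ± 0.32, adjusted p = 0.190). The list summed to 7470 to 7758 against 11527 to 14159 units, and in GFP+ cells to 10304 to 10500 against 9085 to 15006. In GFP+ cells the median was 0.13 and 1 member passed, Cd3e. It was read there at 233 and 157 against 763 and 1981 (2.68 ± 0.39, adjusted p = 0.0419). Of 4 T cell receptor segments tested, 3 were lower and 0 higher without overlap. The brightest, Trgv1, overlapped at 703 and 716 against 1152, 707 and 786 (0.28, adjusted p = 0.685). These are too few sets to weigh against the CD3 genes. NK and ILC1 genes (21 tested, 10 higher and 4 lower without overlap) had a median of 0.19, with Gzmc past the threshold. That median was 0.40 without Rag1-sufficient replicate 2, 0.33 without Rag1-/- replicate 1, 0.11 without its replicate 3 and 0.09 after quantile normalization. In them Itgae, an integrin of tissue-resident lymphocytes, was read at 1072 and 1103 against 1645, 1960 and 2110 (0.80, adjusted p = 0.0836), and the chemokine gene Ccl3 at 161 and 279 against 63.7, 72.4 and 61.4 (-1.67, adjusted p = 0.0748). Tbx21, the factor of type 1 lymphocytes, was read at 203 and 193 against 330, 317 and 317 (0.70, adjusted p = 0.275).

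ILC2 genes as a list did not shift one way: of 24 tested, 5 were higher and 4 lower without overlap, none passed, and the median was 0.00 (-0.12 after quantile normalization). Gata3, the ILC2 factor, overlapped at 3614 and 3881 against 3643, 3194 and 2677. Il13, a type 2 cytokine, was read at 1551 and 1284 against 1763, 1812 and 1705 (0.32, adjusted p = 0.378), and Il5, the eosinophil cytokine, overlapped at 1225 and 763 against 604, 580 and 863. Tnfrsf4, the costimulatory receptor OX40, stood out by size at 486 and 412 against 987, 1260 and 1647 (1.50 ± 0.24, adjusted p = 0.0651). Ramp1, part of the receptor for the neuropeptide CGRP, was read at 133 on both Rag1-sufficient arrays and at 221, 392 and 431 on the Rag1-/- arrays (1.32 ± 0.26, adjusted p = 0.0967).

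The other ILC lists moved little. ILC3 and type 17 genes (13 tested, 4 higher and 1 lower without overlap) had a median of 0.18, which was -0.004 without Rag1-sufficient replicate 2 and 0.11 without Rag1-/- replicate 3. Ccr6, a chemokine receptor of type 17 cells, was read at 733 and 715 against 1316, 1185 and 1129 (0.74, adjusted p = 0.0943). Pan-ILC genes (9 tested) had 1 higher and 2 lower without overlap and a median of 0.04 (-0.001 without Rag1-/- replicate 2 and -0.10 after quantile normalization). Zbtb16, the factor PLZF of ILC precursors, was read at 120 and 137 against 88.5, 73.6 and 81.9 (-0.65, adjusted p = 0.0686). Il7r, a receptor chain for interleukin-7, overlapped at 3178 and 3230 against 3448, 2566 and 2842.

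**Figure D4:**
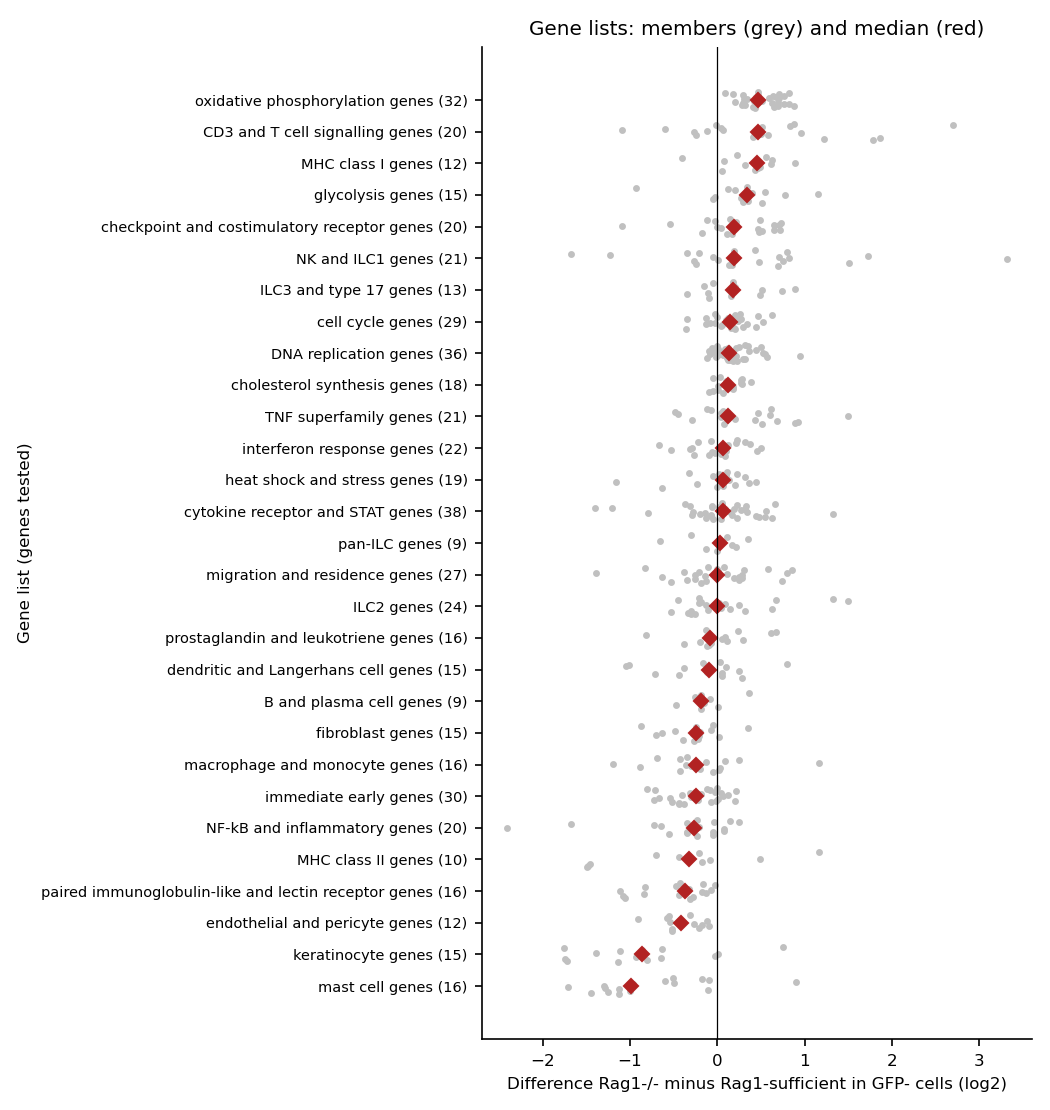
Difference Rag1-/- minus Rag1-sufficient in GFP- cells (log2) of each tested member (grey points) and the median (red diamonds) of the lists with at least 9 tested genes. Medians run from -0.98 for mast cell genes to 0.47 for oxidative phosphorylation genes, and that of ILC2 genes is at 0.00.

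Activation genes lay lower on balance. Immediate early genes, which switch on soon after stimulation, had 15 of 30 lower and 0 higher without overlap, a median of -0.25 (GFP+ 0.06) and no call. That median was -0.16 without Rag1-/- replicate 3 and -0.37 after quantile normalization. Myc was read at 474 and 550 against 328, 288 and 264 (-0.81, adjusted p = 0.0943), and Nr4a1, an orphan receptor induced by activation, at 5336 and 5718 against 4494, 3663 and 3331 (-0.54, adjusted p = 0.145). NF-kB and inflammatory genes had 8 of 20 lower and 3 higher, a median of -0.26 and 1 call, Il1b. Zfp36, which degrades cytokine transcripts, was read at 2794 and 2864 against 2182, 1678 and 1422 (-0.71, adjusted p = 0.160).

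Cytokine receptor and STAT genes (38 tested, 14 higher and 9 lower) had a median of 0.06 (-0.11 after quantile normalization) and 1 call, Csf2rb. Its close copy Csf2rb2 was read at 226 and 227 against 88.3, 87.4 and 79.7 (-1.40 ± 0.22, adjusted p = 0.0664), and since the copies resemble each other their probes may read both. Il1r2, the decoy receptor for interleukin-1, was on the other side, at 564 and 484 against 1355, 1226 and 1376 (1.33 ± 0.36, adjusted p = 0.174). Among the migration genes (27 tested, 10 higher and 11 lower, median 0.00), S1pr1, which guides lymphocytes out of tissue, was read at 118 and 114 against 73.1, 76.4 and 73.7 (-0.63, adjusted p = 0.164).

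Most members of several families of biosynthesis and energy supply read higher in Rag1-/- GFP- cells, by small differences, and none passed the threshold. Of 32 oxidative phosphorylation genes, all 32 had a positive difference, 23 were higher and 0 lower without overlap, and the median was 0.47 (GFP+ -0.19). Among the proteasome subunits 27 of 38 were higher and 0 lower (median 0.41, GFP+ -0.18). Cytosolic ribosomal protein genes had 34 of 55 higher and 0 lower (0.38, GFP+ -0.01), and mitochondrial ones 42 of 73 higher and 1 lower (0.32, GFP+ -0.14).

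Rag1-/- GFP- replicate 3 was the brightest of its group in the oxidative phosphorylation list, at a sum of 39716 against 29235 and 32065, with 25571 to 26120 on the Rag1-sufficient arrays. Without it the 4 medians were 0.32, 0.22, 0.22 and 0.19, in the order given above. After quantile normalization they were 0.42, 0.27, 0.19 and 0.25, and the GFP+ median of the cytosolic ribosomal genes was 0.09. Mrpl50, of the mitochondrial ribosome, was read at 112 and 122 against 171, 182 and 183 (0.61 ± 0.10, adjusted p = 0.0739), and in GFP+ cells at 255 and 230 against 149 and 153. Ndufb5, of respiratory complex I, was read at 155 and 166 against 213, 274 and 444 (0.88, adjusted p = 0.213).

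Glycolysis genes had 8 of 15 higher and 1 lower (median 0.34, GFP+ -0.14). Pgk1, a glycolytic kinase, was read at 767 and 669 against 1257, 1642 and 1977 (1.16 ± 0.20, adjusted p = 0.0739), while the glucose transporter Slc2a3 was read at 346 and 335 against 217, 165 and 158 (-0.93 ± 0.16, adjusted p = 0.0739). DNA replication genes had 15 of 36 higher and 0 lower (0.14, GFP+ -0.36), and cell cycle genes 9 of 29 higher and 1 lower (0.15, GFP+ -0.64). After quantile normalization the glycolysis medians were 0.19 and, in GFP+ cells, 0.01, while those of DNA replication (0.12, GFP+ -0.31) and cell cycle genes (0.13, GFP+ -0.65) kept opposite signs in the fractions. The difference between fractions passed the threshold for 0 members of each list.

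MicroRNA genes showed the reverse order. Of 112 tested, 98 had a negative difference, 56 were lower and 0 higher without overlap, and the median was -0.17 (GFP+ 0.00; -0.17 after quantile normalization). Mir106b was read at 81.3 and 89.1 against 59.3, 65.0 and 60.1 (-0.46, adjusted p = 0.0836), and Mir674 at 191 and 182 against 134, 129 and 115 (-0.56, adjusted p = 0.0859). Many sets of this list were dim, such as Mir301b, at 56.5 and 56.7 against 40.4, 44.3 and 47.6 in GFP- cells (-0.36). Brighter ones included Mir346, at 569 and 616 against 464, 470 and 384 (-0.43). Whether the shift of the list depended on intensity was not tested. What share of mature microRNA such probe sets read was not tested either.

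**Figure D5:**
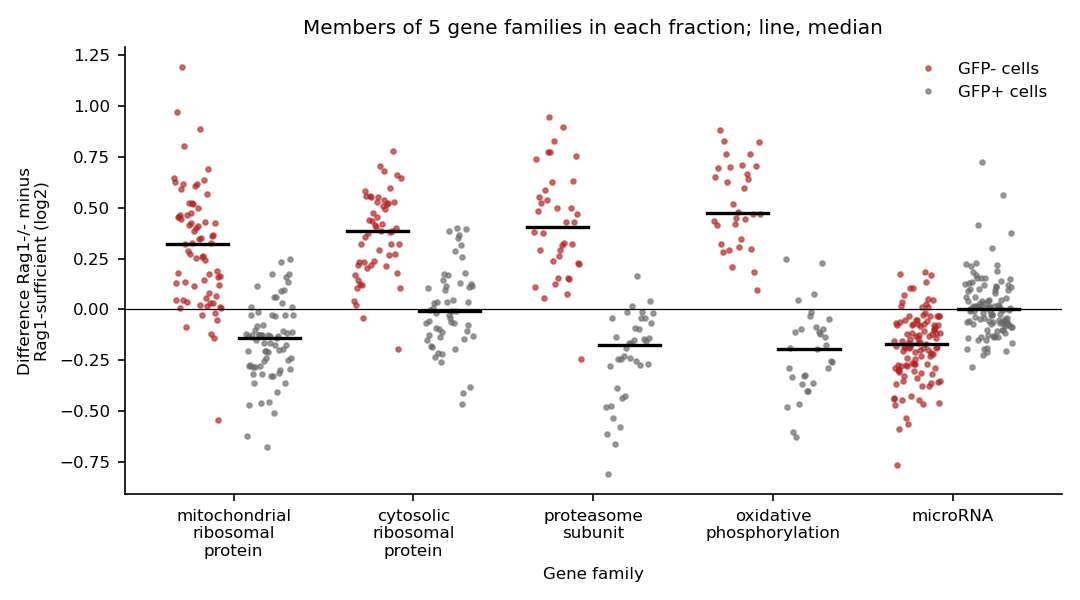
Difference Rag1-/- minus Rag1-sufficient (log2) of the tested members of 5 gene families in GFP- cells (red) and GFP+ cells (grey); points are genes and lines medians. In GFP- cells the medians are 0.32, 0.38, 0.41 and 0.47 for the first 4 families and -0.17 for microRNA genes, and in GFP+ cells they lie between -0.19 and 0.00.

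The genes that flank Rag1 on chromosome 2 were examined as the nearest to the targeted locus. Of the 20 genes on each side, 31 were tested and 0 passed, with a median of -0.03 and a range from -0.53 to 0.67. Of these, 8 were higher and 4 lower without overlap, and the smallest adjusted p was 0.128.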

How the data were processed

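Per the labels' protocols, total RNA of sorted cells was hybridised as biotinylated single-stranded DNA to Affymetrix arrays. The authors deposited 1 linear intensity per probe set and array for 24922 probe sets. The submitters' processing notes name MAS5, with no version or role; how arrays were normalized, and on which genome build, is not given in the sources used here. Array medians differed little, but those of the Rag1-/- GFP- arrays all lay below both Rag1-sufficient GFP- ones. Whether arrays had been scaled to each other is not known. The annotation gave 21425 sets 1 gene symbol, 1399 several and 2098 none, and 21347 of the 21425 matched GRCm38.p6. Sets with several or no symbols were not named. In the lists and the panel, a gene is represented by its set with the highest mean. Genes named for passing the threshold, or for the difference between fractions, were picked by set, whether or not it was that set.

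Intensities were transformed as log2(value + 1), which understates differences of dim genes. The 30% of sets with the lowest mean were left out. A model with 1 mean per group was fitted to all 9 arrays with limma 3.58.1 in R 4.3.3 (lmFit; eBayes with trend; degrees of freedom 5 residual, 3.56 prior) and checked on simulated data. Tests were two-sided, adjusted by Benjamini-Hochberg over all 17445 sets, with 0.05 as threshold. Both Rag1-sufficient GFP- arrays held equal values in 686 tested sets, and all 3 Rag1-/- GFP- arrays in 103, none of them among the 25 that passed, so the spread within groups is partly understated. Array number limits the precision.

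The genes named were the 20 largest differences past the threshold in each direction (with fewer than 10, all that passed and the next by p), 5 for the difference between fractions, up to 4 of each of 34 lists by p, and a panel of lineage genes; the unnamed set, the second Kcnma1 set and members of the families taken by symbol were added after their values were seen. The comparison and lists were chosen with earlier results of these data known. Alternatives covered the pseudocount, filter, quantile normalization, model settings, a replicate block and each array left out.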

Additional observations from a re-analysis of the deposited data

How the results depend on the processing

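The count of 25 sets (9 higher, 16 lower) was 43 with a pseudocount of 16, 9 with the dimmest 50% of sets left out, 8 on the 5 GFP- arrays alone, 38 with robust eBayes, 1168 (685 higher, 483 lower) with array weights and 44 with 1 set a gene. It was 36 after quantile normalization, 32 with no filter and 22 (12 higher, 10 lower) without the intensity trend. With 1 array left out it ranged from 1 to 139. The replicate numbers are not stated to pair samples. Same-numbered GFP- samples of the genotypes deviated from their group means with correlations of -0.157 and 0.012. Same-numbered GFP+ and GFP- samples did so with 0.082 in Rag1-sufficient mice, and with 0.031 and -0.244 in Rag1-/- mice. With so few arrays in a group, these values cannot decide whether samples were paired. A fit with the replicate block, which drops Rag1-/- GFP- replicate 3, called 6 sets. For the difference between fractions, 0 sets passed, against 1 with the dimmest 50% left out, 1 after quantile normalization, 31 with array weights, 6 with 1 set a gene, and 0 to 500 with 1 array left out; it was not run on the GFP- arrays alone, which hold no GFP+ cells.

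The Kcnma1 set passed in 19 of 19 alternatives, Gzmc in 17 of 19, and Cd33 and Lrrk2 in 14 of 18. Signs of genes near 0 changed. After quantile normalization the differences were Nfil3 -0.024, Camp 0.001, Plin1 0.010 and Slc4a1 0.027, and Gzmb was -0.019 with the replicate block. With 1 array left out, Plin1 ran from -0.096 to 0.001, Slc4a1 from -0.029 to 0.009, Id2 from -0.020 to 0.013, Il17a from -0.011 to 0.325, Ifng from -0.354 to 0.694 and Gzmb from -0.169 to 0.196. Of the other values of named genes under alternatives, 2682 kept their side of the threshold, 140 passed where they had not, and 167 no longer passed. Dim genes and small array numbers limit what these data can show: 6 of the 16 lower sets had a Rag1-/- mean below the filter limit.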

Other observations

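Several lists that the results above do not describe are given here, and their shifts were mixed. TNF superfamily genes had 10 of 21 higher and 2 lower without overlap (median 0.12, 0.16 to 0.21 with 1 GFP- array left out, but -0.05 after quantile normalization), and Tnfsf4, the ligand of OX40, was read at 56.4 and 38.5 against 101, 70.5 and 101 (0.93 ± 0.19, adjusted p = 0.109). Checkpoint and costimulatory receptor genes had 9 of 20 higher and 2 lower (median 0.19, and 0.29 without Rag1-/- replicate 2). In them Nt5e, the ectoenzyme CD73 that makes adenosine, was read at 1042 and 1083 against 1863, 1603 and 1858 (0.74 ± 0.13, adjusted p = 0.0797), and Tigit, an inhibitory receptor, at 375 and 394 against 525, 574 and 548 (0.51, adjusted p = 0.196).

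Interferon response genes had 7 of 22 higher and 4 lower (median 0.07, but 0.005 without Rag1-/- replicate 3), and Dhx58, an RNA sensor, was read at 44.2 and 47.7 against 62.5, 58.3 and 58.7 (0.37, adjusted p = 0.0993). Prostaglandin and leukotriene genes had 3 of 16 higher and 4 lower (median -0.08, but 0.007 without Rag1-sufficient replicate 1 and -0.01 after quantile normalization). Alox5ap, needed for leukotriene synthesis, was read at 101 and 88.1 against 48.7, 54.0 and 56.8 (-0.82 ± 0.13, adjusted p = 0.0677). Cholesterol synthesis genes had 2 of 18 higher and 0 lower (median 0.13, but 0.003 without Rag1-/- replicate 3 and 0.03 after quantile normalization), heat shock and stress genes 2 of 19 higher and 4 lower (0.07, and -0.07 after quantile normalization), and B and plasma cell genes 1 of 9 higher and 3 lower (-0.18, and -0.11 without Rag1-/- replicate 3 or -0.12 after quantile normalization). Histone genes had 13 of 35 higher and 4 lower (median 0.14, GFP+ -0.52; in GFP- cells 0.21 without Rag1-/- replicate 1 and 0.08 after quantile normalization). Small nucleolar RNA genes had a median of 0.09 that turned to -0.09 without Rag1-sufficient GFP- replicate 2. Melanocyte, adipocyte, neutrophil, erythroid, and basophil and eosinophil lists had 1 to 5 tested genes each and none passed.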
